A study of Bos taurus and Bos indicus x Bos taurus with 938 samples.

Results

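Open chromatin was compared between 8-cell bovine embryos made by somatic cell nuclear transfer (SCNT) and by in vitro fertilisation (IVF). The blastomeres were those whose titles state a cell number of 8, and they made up 30.3% of the blastomeres in the deposited table (the counts are given with the processing). SCNT blastomeres from 21 embryos were 58.5% of them and IVF blastomeres from 14 embryos 41.5%, and the embryo was the replicate throughout. No embryo held more than 8 blastomeres, and all 8 were present for 9 SCNT and 8 IVF embryos. The columns left out 10 SCNT and 7 IVF blastomeres labelled 8-cell. Embryos are named below by type and by the embryo number of their titles, as in SCNT-65 or IVF-526.

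The study applied ATAC-seq to single blastomeres of IVF and SCNT embryos from the 2-cell stage onward. Both types started from oocytes of abattoir ovaries matured in the laboratory; IVF embryos were fertilised with thawed semen, and no source used here names the donor cell of the SCNT embryos. The SCNT libraries are labelled Bos taurus and carry the title prefixes 15243 (12 embryos) and 15244 (9 embryos), while the IVF libraries are labelled Bos indicus x Bos taurus and carry prefix 15287. Type, title prefix and breed therefore cannot be told apart, and no within-prefix value of the type difference exists.

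ATAC-seq uses the transposase Tn5, which inserts adapters where DNA is accessible, so that recovered fragments mark open chromatin such as active promoters and enhancers. In nuclear transfer the oocyte has to return the chromatin of a differentiated nucleus to an embryonic state, whereas a fertilised egg combines the chromatin of sperm and oocyte. In cattle the embryo's own genome is mainly activated around the 8-cell stage, before which development runs largely on RNA and protein stored in the oocyte.

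Each value in the table is a 0 or 1 call of 1 region in 1 blastomere, and the regions carry running numbers without coordinates or genes. An SCNT blastomere had 810 to 31275 open regions with a median of 7061, and an IVF blastomere had at most 46836 with a median of 13374. Because of this difference in depth, calls were compared with the number expected from how many calls a blastomere had and how often a region was open. The ratio of observed to expected calls is called coverage here. Regions next to each other in the numbering were open in the same blastomeres over long runs, which divide the numbering into 29 main blocks, a dense stretch (H) in which 25.2% of values were open over the blastomeres of all stages, a mixed stretch (M) and blocks P and Q at the end. The numbers give order only, and which chromosome a block belongs to was not tested. Libraries of 3 SCNT embryos of prefix 15243 shared more calls than any other pairs: blastomere H of SCNT-19 and blastomere G of SCNT-20 had a Jaccard index of 0.390, and blastomere C of SCNT-17 had 0.379 and 0.371 with them. Without the pair of libraries that shared most, 0.326% of regions were more often open in SCNT and 0.361% less often, against 0.336% and 0.367% with them.

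**Figure D1:**
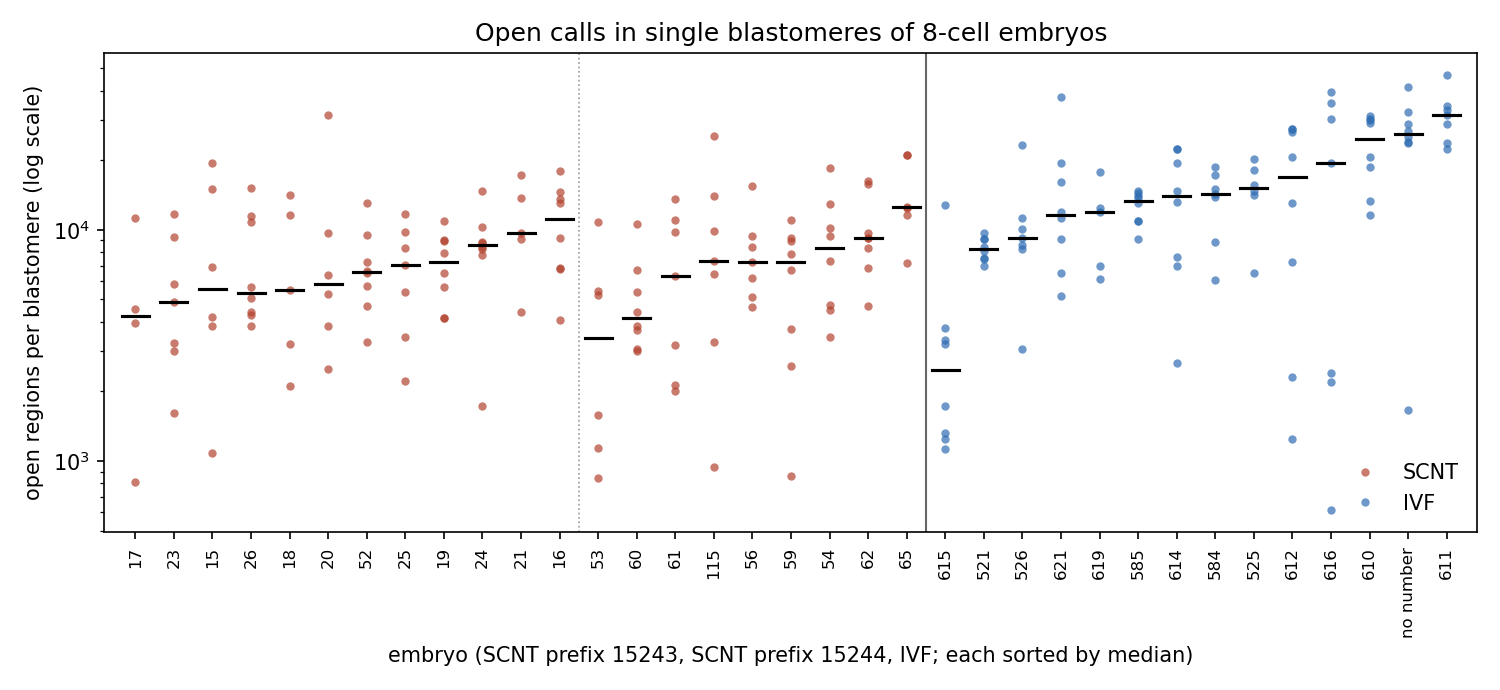
Open calls per blastomere on a log axis for the 21 SCNT embryos and the 14 IVF embryos, with 1 point for each blastomere and a bar at each embryo's median. The SCNT points lie between 810 and 31275 calls and the IVF points reach 46836, so the types overlap.

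Blocks P and Q, at the end of the numbering, differed in opposite directions. Block P (regions 298001 to 302350) had lower coverage in SCNT embryos and block Q (region 302351 to the last) had higher coverage. Coverage of P was 0.472 to 0.965 in the 21 SCNT embryos, with a median of 0.687, and 0.699 to 1.53 in the 14 IVF embryos, with a median of 1.27. The groups overlapped, but 13 of the 21 SCNT embryos lay below the lowest IVF embryo. The means were 0.696 ± 0.112 in SCNT and 1.18 ± 0.248 in IVF (SD, n = 21 and 14), a difference of -0.488 (two-sided permutation test over embryos, p = 1.00e-05, the smallest that 100000 resamples can give; adjusted p = 1.65e-04 over 33 blocks and stretches). The SCNT prefixes were close to each other, at 0.657 ± 0.0758 in 15243 and 0.748 ± 0.136 in 15244 (SD, n = 12 and 9). An earlier reading of these data had already singled out both blocks, so their difference is given as a description of its size and form and not as independent support.

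Coverage of Q was 0.792 to 3.09 in SCNT embryos, with a median of 1.54, and 0.356 to 1.39 in IVF embryos, with a median of 0.425. Of the 21 SCNT embryos, 14 lay above the highest IVF embryo. The means were 1.64 ± 0.544 in SCNT and 0.499 ± 0.263 in IVF (SD, n = 21 and 14), a difference of 1.14 with an adjusted p of 1.65e-04 in the same permutation test. Prefix 15243 averaged 1.73 ± 0.644 and prefix 15244 averaged 1.50 ± 0.367.

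The highest IVF value in Q and the lowest IVF value in P came from the same embryo, the only IVF embryo whose title gives no embryo number. Its coverage was 0.699 in P and 1.39 in Q, both inside the range of the SCNT embryos. The pattern was shared by its blastomeres: 7 of the 8 had a coverage of Q between 1.08 and 1.72, and the remaining blastomere, G, had 1 call in Q where 2.26 were expected. Without this embryo the IVF values of Q ran from 0.356 to 0.531 and averaged 0.430 ± 0.0594 (SD, n = 13), below every SCNT embryo, and those of P averaged 1.22 ± 0.213. The blocks did not go together in IVF-525, with 0.754 in P but 0.395 in Q. Whether the unnumbered embryo's label is right was not tested.

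**Figure D2:**
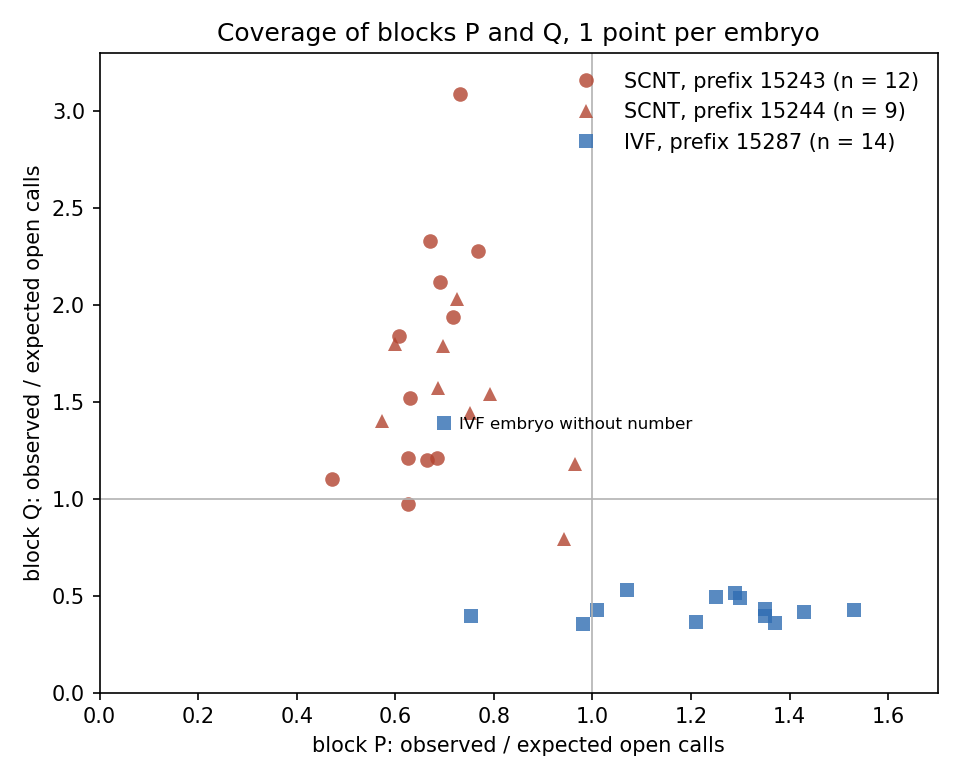
Coverage of block Q against coverage of block P, both as observed over expected open calls, with 1 point for each embryo of the SCNT and IVF groups. SCNT embryos lie at P of 0.472 to 0.965 and Q of 0.792 to 3.09; the IVF embryo without a number lies among them at 0.699 and 1.39, and the other 13 IVF embryos lie at Q of 0.356 to 0.531.

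The difference in P was spread along most of the block. Of the 44 stretches of 100 regions in P, 29 were lower in SCNT embryos and 0 higher (limma on log2 coverage per embryo with Benjamini-Hochberg adjustment over 3028 stretches, threshold 0.05). Over the whole numbering 10.0% of stretches were higher and 8.19% lower. The longest run covered regions 298001 to 298800, where coverage was 0.430 to 0.845 in SCNT embryos, with a median of 0.548, and 0.697 to 1.64 in IVF embryos, with a median of 1.34. The last stretch wholly inside P, regions 302201 to 302300, had a log2 difference of 0.09 ± 0.29 (SE), and the next, counted with P but reaching into Q, had 0.16 ± 0.21, and neither passed. With the SCNT embryos of prefix 15244 alone, 14 of the 44 stretches passed.

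All 4 stretches of Q were higher in SCNT embryos. The difference was uneven along the block: stretch S3026, regions 302501 to 302600, had a coverage of 0.742 to 4.66 in SCNT embryos, with a median of 2.24, and of 0 to 1.19 in IVF embryos, with a median of 0.119. Its log2 difference was 3.85 ± 0.33 (SE, limma adjusted p = 3.81e-11), against 1.38 ± 0.19, 1.50 ± 0.27 and 2.07 ± 0.28 in the other stretches of Q.

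Among the main blocks, block 24 had higher coverage in SCNT embryos, and blocks 10 and 16 had lower coverage. Coverage of block 24 averaged 1.12 ± 0.214 in SCNT and 0.903 ± 0.104 in IVF (SD, n = 21 and 14; permutation adjusted p = 0.00865), and 13 SCNT embryos lay above the highest IVF embryo. Block 10 averaged 0.837 ± 0.127 in SCNT and 1.06 ± 0.246 in IVF (adjusted p = 0.00627). Block 16 averaged 0.878 ± 0.135 in SCNT and 1.07 ± 0.186 in IVF (adjusted p = 0.00865). These differences, of 0.221, -0.226 and -0.189, were smaller than those of P and Q. The other 28 blocks and stretches did not pass.

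The stretches of 100 regions showed the same differences at finer scale, with calls in most blocks. In all, 303 of 3028 stretches (10.0%) were higher in SCNT embryos and 8.19% lower, and 33.1% had an unadjusted p under 0.05. Block 24 held 40 higher and 5 lower stretches, whereas block 10 held 0 higher and 20 lower and block 16 held 1 higher and 16 lower. Blocks 13 and 29 held only higher stretches among those that passed, 13 and 30 of them. Block 13 had under 0.1 of its expected calls in 12 IVF blastomeres and block 29 in 1, and without all blastomeres that lacked a block in this sense the numbers were 7 and 32. The longest run of higher stretches in the main blocks covered regions 208701 to 209200 of block 24, with coverage of 0.333 to 2.15 in SCNT embryos (median 1.43) and of 0.577 to 1.11 in IVF embryos (median 0.741). Between the SCNT prefixes 0 of 3028 stretches differed by the same limma test, with 6.64% at an unadjusted p under 0.05. That test compared 12 with 9 embryos, fewer than the type test, and so has less power. With prefix 15243 alone against IVF, 5.68% of stretches were higher and 6.87% lower, and with prefix 15244 alone 4.36% and 2.38%.

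**Figure D3:**
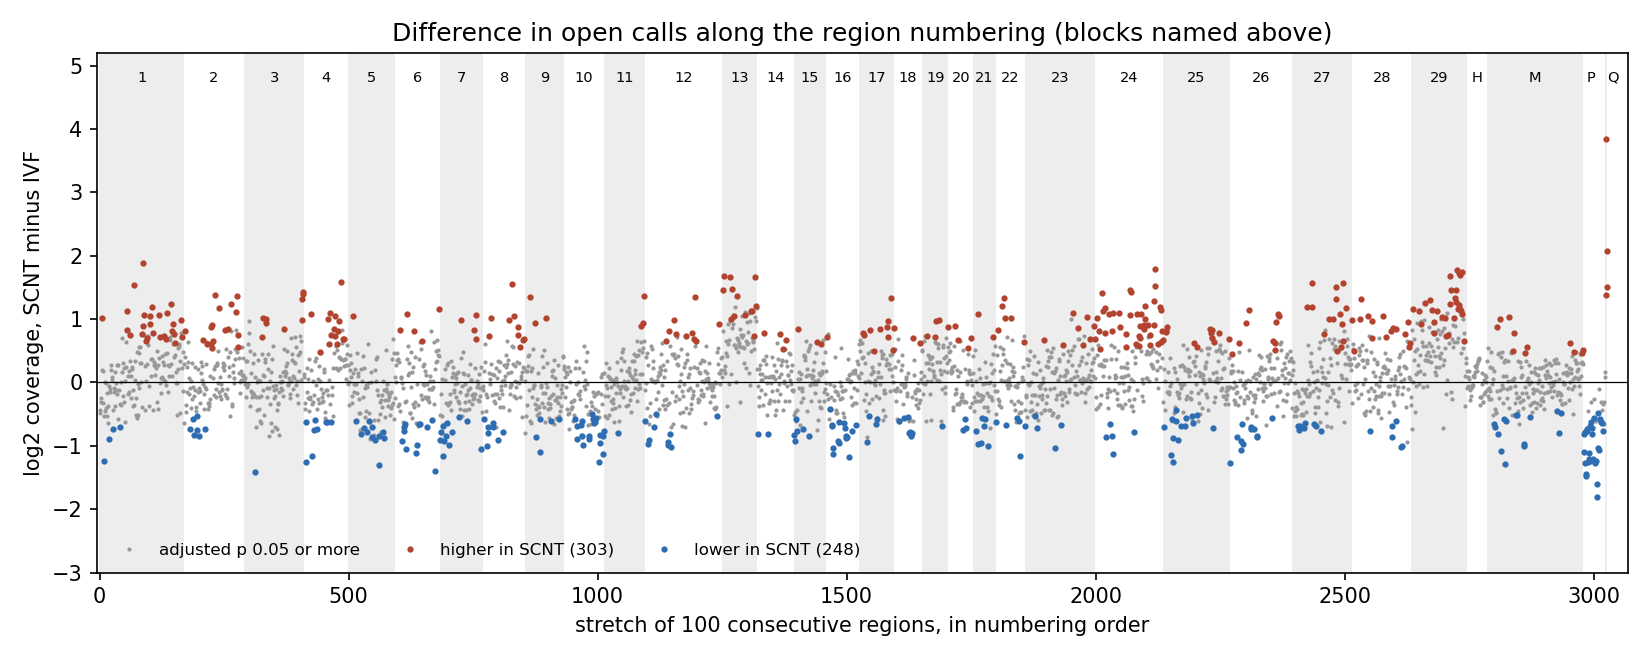
Log2 difference in coverage, SCNT minus IVF, of each of the 3028 stretches of 100 regions in order of the numbering, with the higher (10.0%) and the lower (8.19%) stretches coloured and the blocks marked along the axis. The lower stretches of P and the 4 higher stretches of Q stand at the right end.

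Single regions differed in both directions. Of 187128 regions open in at least 10% of the embryos, 0.336% were more often open in SCNT and 0.367% less often (limma-moderated quasi-Poisson score test with an exact binomial bound, Benjamini-Hochberg adjusted p under 0.05). Regions more often open in SCNT were thus 47.8% of those called, but this balance depended on the setting. Their part was 5.37% with depth taken from regions common before 8 cells, 65.1% with prefix 15243 alone, and 100% with prefix 15244 alone and in embryos thinned to equal totals. Within SCNT, 0 of 122170 regions (0%) differed between the prefixes by the same test, and 1 did by the score test alone. An unadjusted p under 0.05 was found for 2.30% between the prefixes and for 13.2% between the types. The prefix test compared 12 with 9 embryos and the type test 21 with 14, so these shares also differ in power. With 1 prefix against IVF the share was 10.2% for 15243 and 5.21% for 15244. The regions more often open in SCNT were open in a median of 16.9% of SCNT and 4.85% of IVF blastomeres. Those less often open were open in a median of 2.07% of SCNT and 30.1% of IVF blastomeres. A call was seen in a median of 14 of 21 SCNT embryos and 4 of 14 IVF embryos for the first kind, and in 2 SCNT and 10 IVF embryos for the second. No call in the other type was seen for 21.8% of the first kind and 23.6% of the second.

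The share of regions called differed along the numbering and with how often a region was open at earlier stages. In Q, 31 of 322 tested regions (9.63%) were more often open in SCNT and 0 less often, and in P 4 were more often open and 50 of 2612 (1.91%) less often. In the dense stretch H, 50 of 3392 (1.47%) were more often open and 11 (0.324%) less often, although the coverage of H as a whole differed by 0.0555 (adjusted permutation p = 0.858). Among regions open in at least 25% of 2- and 4-cell blastomeres, 7.58% of 3021 were more often open in SCNT and 0.298% less often. The median log2 ratio over these 3021 regions was 0.09. Among those open in 10 to 25% of these blastomeres, 0.798% were more often open and 1.32% less often, and among those open in under 1% the counts were 3 and 12 of 15341. Regions open more often have more calls to test with, and SCNT blastomeres were shallower. How far the shares called go with either was not tested.

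Region V107404, in block 11, had the smallest adjusted p of all. It was open in 12.5 to 100% of the blastomeres of an SCNT embryo, with a median of 80%, and in 0 to 62.5% of those of an IVF embryo, with a median of 22.5%. In all it was open in 74.5% of SCNT and 22.3% of IVF blastomeres. The log2 ratio of observed over expected calls was 2.27 (limma-moderated score test, adjusted p = 4.22e-06). The ranges overlapped, with 15 SCNT embryos above the highest IVF embryo.

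Region V11516, in block 1, was open in 12.5 to 100% of the blastomeres of SCNT embryos (median 66.7%) and in 0 to 50.0% of IVF embryos (median 26.8%), with a log2 ratio of 1.81 (adjusted p = 1.02e-04 in the same limma-moderated test). Regions V278013 in H, V40845 in block 3, V195231 in block 23 and V172033 in block 20 also had calls in both types. They were open in 51.0, 51.0, 45.5 and 35.9% of SCNT blastomeres and in 13.6, 24.3, 20.4 and 13.6% of IVF blastomeres. Region V23668, in block 2, had 20 calls in 14 SCNT embryos and 0 in IVF. With 3 calls over the IVF group as the limit, its observed over expected calls were at least 9.72-fold higher in SCNT. That limit covers counting error in IVF only and takes blastomeres as independent.

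The remaining regions among the 10 with the smallest adjusted p were V284084 in M and V302512 and V302513 in Q, and all 3 had IVF calls only in the embryo without a number. V302512 had 31 calls in 16 SCNT embryos and 1 call in IVF, V302513 had 30 calls in 17 SCNT embryos and 2 in IVF, and V284084 had 38 calls in 18 SCNT embryos and 2 in IVF. At 2 cells V302512 had 7 calls in SCNT where 1.30 were expected and 0 in IVF where 5.70 were expected, and at 4 cells it had 9 in SCNT and 0 in IVF. Not every named region did so. V107404 had 24 SCNT calls at 4 cells where 23.5 were expected. V104474, more often open in SCNT at 8 cells, had 17 SCNT calls at 2 cells where 17.8 were expected. V163124, less often open, had 9 at 4 cells where 7.68 were expected. V275, also less often open, had 3 at 2 cells where 2.87 were expected. These embryos of other stages did not enter the 8-cell test.

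Region V100164, in block 10, led the regions less often open in SCNT. It was open in 0 to 28.6% of the blastomeres of an SCNT embryo, with a median of 0%, and in 0 to 100% of those of an IVF embryo, with a median of 59.8%. Calls numbered 3 in SCNT blastomeres and 56 in IVF blastomeres, and the log2 ratio was -3.84 (limma-moderated score test, adjusted p = 0.00165). Of the 14 IVF embryos, 10 lay above the highest SCNT embryo, and 12 had a call. Regions V163124, V140972, V244207 and V275, in blocks 18, 15, 27 and 1, had 5, 2, 3 and 6 calls in SCNT and 47, 40, 43 and 47 in IVF.

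The other 5 of the 10 regions had 0 calls in the SCNT blastomeres, which allows a share of up to 2.07%. They were V44943, V98246, V228407, V61249 and V221110, in blocks 4, 10, 26, 6 and 25, with 30, 28, 28, 27 and 27 calls in IVF. Their observed over expected calls were at least 7.05, 6.55, 6.55, 6.29 and 6.29-fold lower in SCNT with 3 calls over the SCNT group as the limit. These limits cover counting error in SCNT only and take blastomeres as independent, although they come from 21 embryos. The regions were also picked by their small adjusted p in the same embryos. Each of the 5 had calls in 9 or 10 IVF embryos.

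The called regions open in the largest share of blastomeres had calls in both types. Regions V274191 in block 29, V283169 in M and V104474 in block 11 were open in 80.7, 80 and 78.6% of SCNT blastomeres and in 48.5, 47.6 and 46.6% of IVF blastomeres. Regions V216182 in block 25, V282680 in M and V277803 in H were open in 22.1, 19.3 and 19.3% of SCNT blastomeres and in 77.7, 72.8 and 70.9% of IVF blastomeres. Leaving out 1 embryo raised the adjusted p to as much as 0.0949 for V274191, 0.0868 for V283169 and 0.0657 for V277803 (limma-moderated score test). With all embryos it was 0.0399, 0.0386 and 0.0334 in the same test, so these calls lie close to the threshold.

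**Figure D4:**
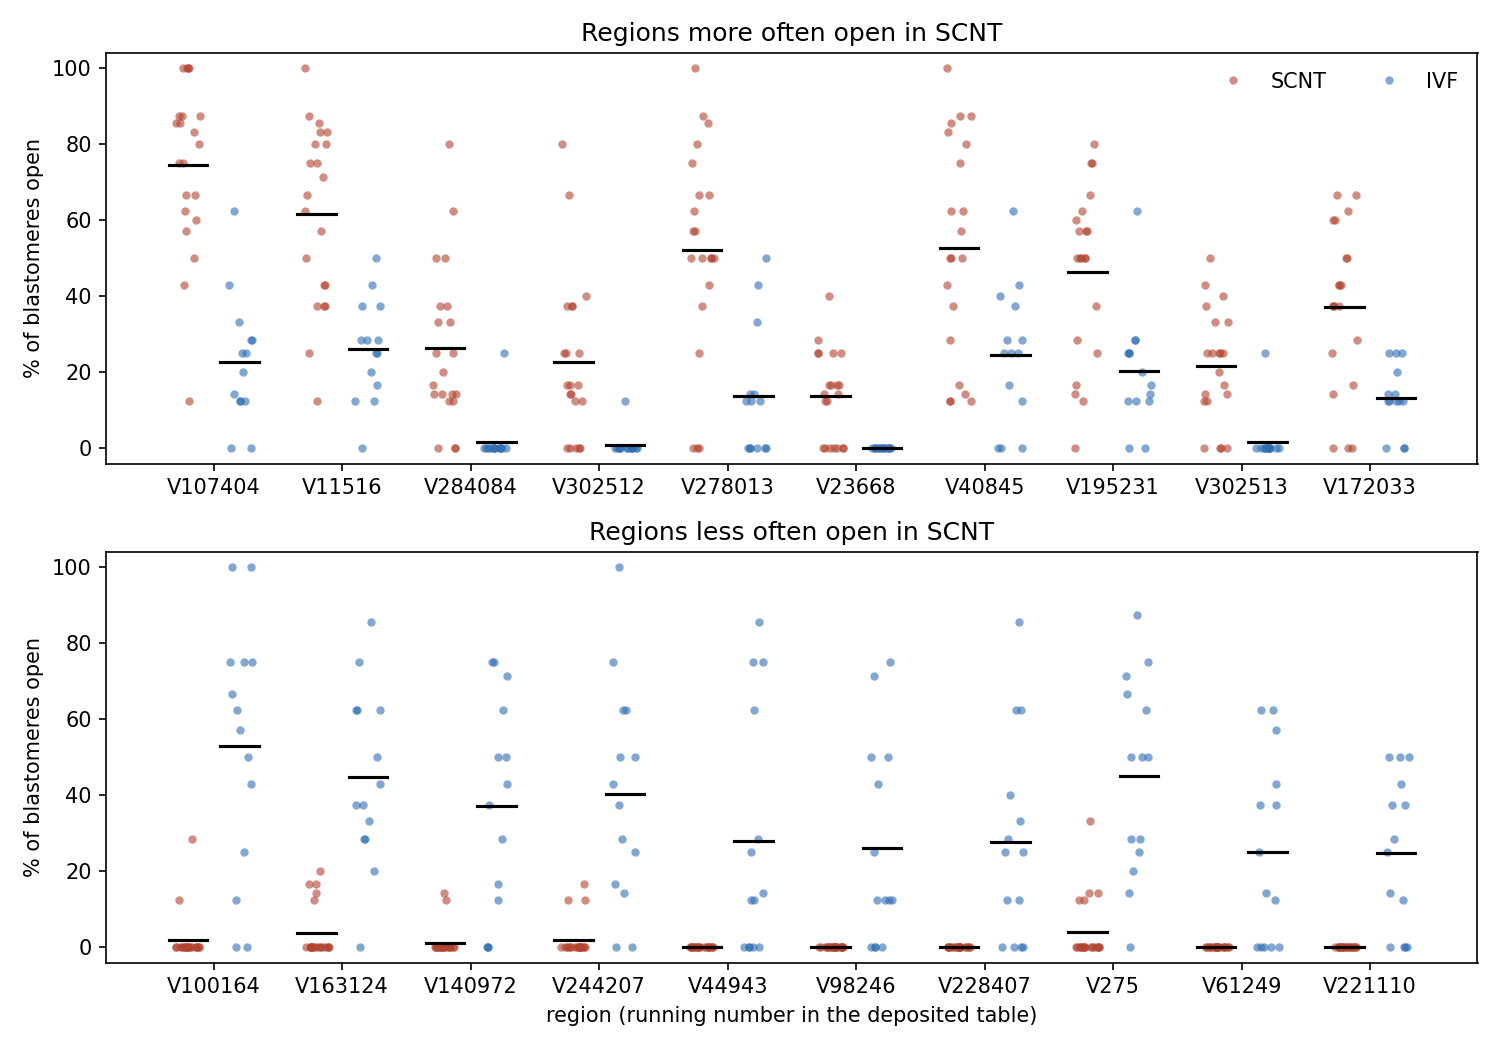
Percent of an embryo's blastomeres in which each named region was open, for SCNT and IVF embryos, with 1 point for each embryo. V107404 has medians of 80% in SCNT and 22.5% in IVF, and V100164 has medians of 0% and 59.8%; the embryos of the types overlap in both regions.

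Not every embryo followed its type at the called regions. For each embryo, regions of the main blocks were called from the other embryos alone, and its own coverage was then read at the regions more often and less often open in SCNT. Coverage of the first kind had a median of 1.68 in SCNT and 0.372 in IVF embryos, and coverage of the second kind had a median of 0.291 in SCNT and 1.18 in IVF embryos. The log2 ratio of the first over the second was -1.74 to 4.02 in SCNT embryos (median 2.22) and -2.89 to 1.48 in IVF embryos (median -1.60).

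Of 21 SCNT embryos 19 were above 0, and SCNT-65 and SCNT-115 were below it at -1.74 and -0.61. Of 14 IVF embryos 4 were above 0, namely IVF-525, IVF-526, IVF-615 and IVF-619 at 0.29, 1.03, 1.48 and 1.27. The embryo without a number stood at -1.60, at the IVF median, although its blocks P and Q lay among the SCNT values. SCNT-65 in turn had a coverage of 0.751 in P and 1.44 in Q, inside the SCNT ranges. In the unnumbered embryo and SCNT-65, P and Q thus did not go with the called regions of the main blocks. In P, however, IVF-525, IVF-615, IVF-619 and IVF-526 had 0.754, 0.981, 1.01 and 1.07, the lowest IVF values after the unnumbered embryo. SCNT-115, with 0.965, had the highest P of the SCNT embryos. In Q these IVF embryos, at 0.356 to 0.531, lay with the other numbered IVF embryos.

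The number of regions called depended on single embryos. It rose without the SCNT embryos below 0 and fell without IVF-610, which followed its type at -2.19. Without SCNT-65, 0.546% of regions were more often open in SCNT and 0.710% less often, without SCNT-115 0.488% and 0.650%, and without IVF-610 0.153% and 0.135%. The stretches of 100 regions moved less, with 8.36 to 11.4% higher and 6.41 to 9.81% lower when each embryo was left out in turn.

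This ratio moved with depth within each type. Against the log10 of an embryo's median calls, Pearson's r was -0.590 in the 21 SCNT embryos (permutation p = 0.00550, adjusted over both types 0.00550) and -0.709 in the 14 IVF embryos (permutation p = 0.00220, adjusted 0.00440). Spearman's rho was -0.418 (permutation p = 0.0575) in SCNT and -0.714 (permutation p = 0.00590) in IVF. Without the embryos farthest from the median depth, SCNT-53 and SCNT-65, and IVF-615 and IVF-611, r was -0.339 in SCNT (permutation p = 0.154) and -0.552 in IVF (permutation p = 0.0640). In SCNT r stayed negative but no longer passed. Leaving out the embryos at both ends also narrows the range of depth, so this does not decide whether the relation rests on them. In IVF, with 12 embryos left, r no longer passed but rho did, at -0.594 (permutation p = 0.0462).

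The comparison was therefore repeated in embryos with a median of 8000 to 16000 calls, 6 SCNT and 8 IVF embryos, a setting added after the values were seen. Depth was closer but not equal, with a median over embryos of 9460.5 calls in SCNT and 12676 in IVF. The setting also has fewer embryos than the main comparison and so less power to call differences. Block P averaged 0.681 ± 0.0772 in these SCNT embryos and 1.18 ± 0.219 in these IVF embryos (SD, n = 6 and 8; exact permutation test, adjusted p = 0.0220). Block Q averaged 1.69 ± 0.394 in SCNT and 0.440 ± 0.0592 in IVF (exact permutation test, adjusted p = 0.0110). Both differences, -0.499 and 1.25, were as large as in all embryos. Block 24 differed by 0.323 (exact permutation test, adjusted p = 0.0513), and blocks 10 and 16 differed by -0.135 and -0.242 and did not pass.

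In these 14 embryos 13 regions were more often open in SCNT and 0 less often, with 2.63% of regions at an unadjusted p under 0.05 in the limma-moderated score test. Of the 20 named regions with the smallest adjusted p, 1 passed here, and V107404 had a log2 difference of 1.81 with an adjusted p of 0.181 in the same limma-moderated test, against 2.24 in all embryos with 0.5 added to its calls. Stretches of 100 regions fell to 6 higher and 3 lower, of which 3 higher ones lay in Q and all 3 lower ones in P. The sizes changed less than the counts. The 288 stretches of the main blocks that were higher in all embryos had a median log2 difference of 1.00 here, against 0.90 in all embryos, and the lower ones had -0.57, against -0.75. The same embryos had helped to choose these stretches. How much of the difference in the main blocks goes with depth was not tested further.

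The regions called at 8 cells went the same way at other stages more often than tested regions in general. Among regions more often open in SCNT, the difference had the same direction in 82.2% at 2 cells, 89% at 4 cells and 97% at 5 to 7 cells. Among regions less often open it was 70.3, 90.8 and 98.7%. Over all tested regions higher in SCNT at 8 cells the shares were 51.9, 58.9 and 65.1%, and over those lower in SCNT they were 59.5, 61.4 and 69.5%. Both the 2- and the 4-cell direction matched for 910 of 1301 called regions (69.9%), against 63316 of 175672 tested regions (36%). The 2 sets were not matched for openness. Regions called more and less often open had been open in a median of 11.7 and 6.36% of 2- and 4-cell blastomeres, against 3.33% over all tested regions. No embryo entered more than 1 stage, but the types differ in title prefix and breed label at every stage, and the stages are not free of shared prefixes. The SCNT libraries at 2, 4 and 5 to 7 cells carry the prefixes of the 8-cell SCNT embryos, and the 8-cell IVF prefix is carried by some IVF libraries at 2 and 4 cells and by all at 5 to 7 cells.

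Whole main blocks nearly without calls were found in IVF blastomeres and not in SCNT blastomeres. A block with under 0.1 of its expected calls is called absent, and blastomeres with at least 2000 calls in the main blocks were assessed. At least 1 block was absent in 0 SCNT blastomeres, which allows a share of up to 2.42%, and in 21 of 89 IVF blastomeres (23.6%, exact 95% interval 15.2 to 33.8). These limits cover counting error only and take blastomeres as independent, while the 21 lay in 4 of 14 embryos. SCNT blastomeres were also shallower, with a median of 7061 calls against 13374 in IVF over all blastomeres. How far depth decides which blocks fall under 0.1 was not tested. Per embryo the difference was -24.4 percentage points (permutation adjusted p = 0.0445 over 7 measures), which did not pass with 1 SCNT prefix alone or in embryos with all 8 blastomeres. Of 3596 block values in SCNT blastomeres, the lowest was 0.206 and 96% lay between 0.5 and 2. Of 2581 in IVF blastomeres, the lowest was 0.0205 and 92.2% lay between 0.5 and 2.

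The 4 IVF embryos lacked blocks in different ways. In IVF-526 block 3 was low in all 7 blastomeres, at 0.0578 to 0.157, while block 4 stood at 1.44 to 2.34 and block 26 at 1.36 to 2.21 in the same cells. In blastomere E this was 48 calls of block 3 where 831 were expected. In IVF-612 block 13 was low in all 8 blastomeres, at 0.0470 to 0.215, and block 29 was reduced to 0.115 to 0.397. The low block was thus shared by every blastomere of each of these embryos.

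In IVF-621 blocks 11, 13, 19 and 29 were low together but not to the same degree in each blastomere. Blastomere F had the highest coverage in all 4, at 0.452, 0.734, 0.729 and 0.478. The lowest values over the blastomeres were 0.0214, 0.0373, 0.0432 and 0.0981. F was also the shallowest blastomere of this embryo, with 5186 calls, while B, with 6528 calls, had 0.116, 0.0819, 0.116 and 0.123. Whether the coverage of F goes with its depth was not tested. Block 28 of the same embryo split the blastomeres, with 0.164, 0.0538 and 0.0764 in B, C and H and with 1.44 to 2.41 in A, D, E and F. Blastomere G stood between them at 0.539.

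IVF-619 was the most uneven, with 24 of the 29 blocks absent from at least 1 of its 5 blastomeres. Blastomeres A and B together lacked blocks 3, 4, 7, 11, 13, 14, 16, 25 and 28, and blastomeres C and G together lacked blocks 1, 2, 6, 9, 17 and 21. Where blocks were absent from some blastomeres, the other values of those blocks had a median of 1.32, and 41 of 72 lay above 1. Expected calls are matched to the total of each blastomere, so absent blocks by themselves raise the coverage of its other blocks. How much of these values goes beyond that was not tested. Block 3 reached 6.51 in C and block 21 reached 7.19 in A, the highest of the IVF values. Block 13 alone was low in all 5 blastomeres, at 0.0714 to 0.142.

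Very high block values were rare. A value above 3 was found 2 times among the 3596 SCNT values, in SCNT-53 and SCNT-61. It was found 12 times among the 2581 IVF values, all of them in IVF-619, where absent blocks raise the coverage of the others. The highest SCNT value was 4.38, in block 17 of blastomere A of SCNT-53, with 868 calls. The other blastomeres of that embryo had 0.468 to 1.40 in this block.

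**Figure D5:**
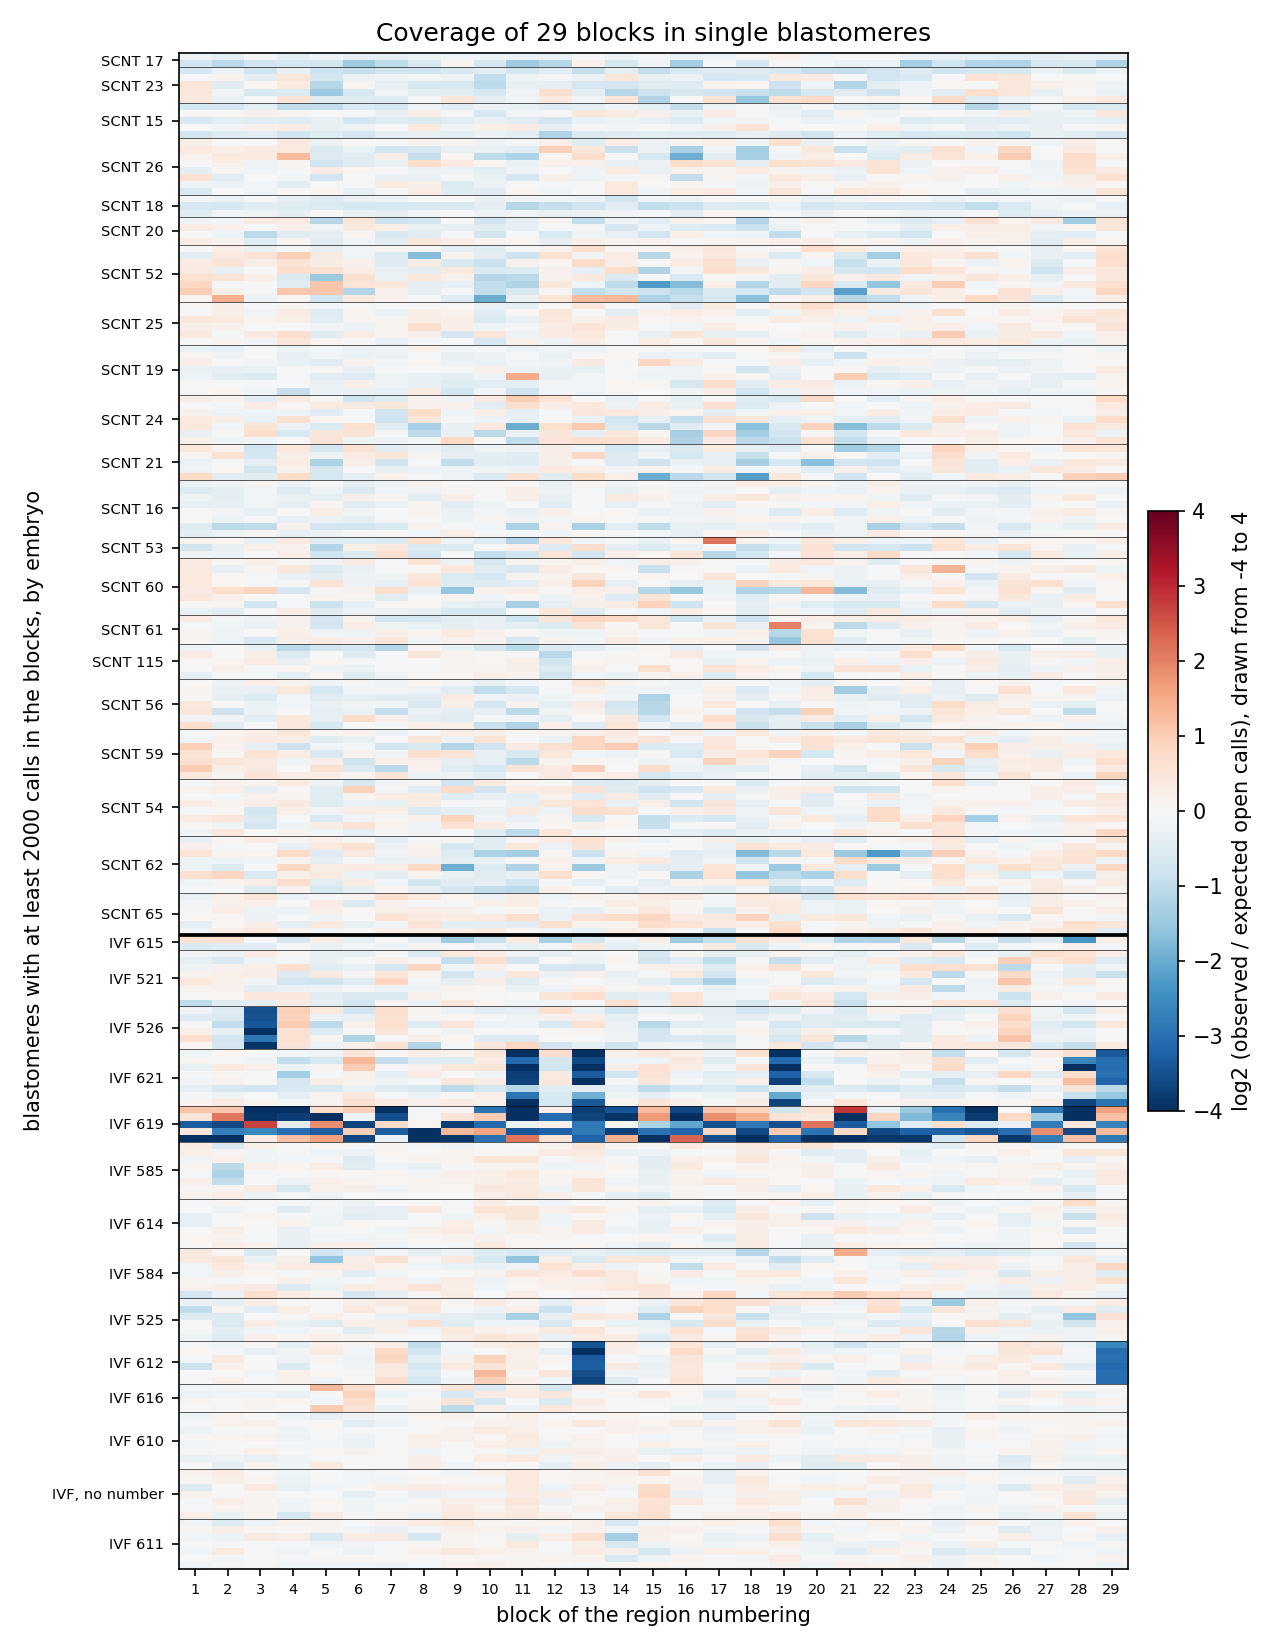
Coverage of the 29 main blocks in each blastomere, as log2 of observed over expected open calls, with SCNT blastomeres above IVF blastomeres. The lowest values, in dark blue, lie in IVF-526, IVF-612, IVF-619 and IVF-621, and no SCNT value falls under 0.206.

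Pooled over both types, embryos of the same type shared slightly more open regions than embryos of different types. The excess lay in the SCNT embryos, whereas IVF embryos shared less with each other than with SCNT embryos. With blastomeres thinned to 1000 calls, which left out 4 SCNT and 1 IVF blastomere with fewer, the mean Jaccard index was 0.0138 among SCNT embryos, 0.00961 among IVF embryos and 0.0108 between the types. The excess within types was 0.00176 (one-sided permutation test, adjusted p = 0.0445), and it did not pass with 1 SCNT prefix alone. With calls of the main blocks only, it was 0.00133 (one-sided permutation p = 1.00e-04, unadjusted). The index was then 0.00771 among SCNT embryos, 0.00588 among IVF embryos and 0.00583 between the types. The types did not differ past the threshold in how alike their own embryos were (difference 0.00420, adjusted permutation p = 0.216), in the excess of sister blastomeres (-1.03e-04, adjusted p = 0.978) or in the spread of calls among sisters (0.0164, adjusted p = 0.872). With blastomeres thinned to 3000 calls, which left out 17 SCNT and 11 IVF blastomeres, SCNT embryos were more alike among themselves than IVF embryos, by 0.0139 (permutation p = 0.0422, unadjusted, against 0.154 at 1000 calls).

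The percent of calls in regions common at 2 and 4 cells was 24.0 ± 10.00 in SCNT and 18.2 ± 9.73 in IVF embryos (SD, n = 21 and 14), a difference of 5.75 percentage points that did not pass (permutation adjusted p = 0.179, unadjusted 0.102). It passed at an unadjusted permutation p of 0.0466 with prefix 15243 alone, at 8.61 points, and of 0.0254 with blastomeres thinned to 3000 calls, at 6.84 points. The log10 of an embryo's median calls was 3.82 ± 0.151 in SCNT and 4.13 ± 0.274 in IVF embryos (permutation adjusted p = 8.40e-04), with ranges of 3.46 to 4.10 and 3.37 to 4.50.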

How the data were processed

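Per the labels' protocols, embryos were separated into single blastomeres and each was treated with Tn5 transposase in its own tube. Per the submitters' processing notes, the tools were Bowtie2 2.2.6, FastQC 0.10.1 and bedtools. Genome build and call rule: not given in the sources used here. What the authors deposited is other than counts, a 0 or 1 call for each of 302830 regions in each of 819 blastomeres, so the depth in reads is unknown. Columns were tied to libraries by running number within each title prefix, an inference that no source states. Libraries without a column (119 of 938) were not analysed here. The 8-cell blastomeres number 248, of which 145 are SCNT and 103 IVF.

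Expected calls came from a model with 1 factor per blastomere and 1 per region, fitted to these blastomeres in 12 iterations, in which the chance of no call is the exponential of minus the factors' product. The ratio of observed to expected calls understates rises in regions open in most blastomeres. Both were added up by embryo. The region test was a two-sided quasi-Poisson score test with dispersion moderated by limma 3.58.1 in R 4.3.3, its p no smaller than an exact binomial p, and was tested on simulated data. It called 628 regions more often open in SCNT and 687 less often, and limma called 303 stretches higher and 248 lower. Other measures were compared by permuting embryo labels 100000 times, or over all assignments where a group had under 10 embryos (Python 3.11.15, numpy 2.4.6, scipy 1.17.1). Stretches used limma on log2 of observed plus 0.5 over expected plus 0.5.

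Regions are named in each direction as the 10 with the smallest adjusted p and the 3 past the threshold open in the largest share of blastomeres. The members, blocks and tests were chosen with earlier results of these data known. Stretches of 100 regions, stretch H, embryos of similar depth, embryos left out of the calls they are read at, depth from the main blocks, similarity in the main blocks, the 5- to 7-cell direction and leaving out the 2 most similar libraries were added after the values were seen. Where nothing says that embryos of 1 type came from separate collections, p-values measure the spread between these embryos.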

Additional observations from a re-analysis of the deposited data

Results flagged for a closer look

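Among 40 measures assessed in the 9 SCNT embryos of prefix 15244, 6 values stood apart from the rest of that group by Dixon's criterion for 9 samples (0.493). Chance alone sets about 1 in 20 such groups apart. In SCNT-53 the Jaccard index among sister blastomeres was 0.0356, with the nearest embryo at 0.0177. The excess of sister similarity in SCNT-53 was 0.0175, with the nearest at 0.00346. SCNT-53 was also the shallowest SCNT embryo, with a median of 3404 calls. SCNT-17 of prefix 15243, with 4244 calls, had an index of 0.0381, while SCNT-60, with 4136 calls, had 0.0177. Whether the sister values of SCNT-53 go with its depth was not tested. Coverage of block 17 in SCNT-53 was 2.39, with the nearest at 1.21, and blastomere A of that embryo had the highest SCNT block value. SCNT-65 had a coverage of 1.22 in block 7 and of 1.31 in block 18, with the nearest at 1.03 and 1.06. SCNT-115 had a coverage of 0.599 in block 12, with the nearest at 0.924. SCNT-65 and SCNT-115 were also the SCNT embryos with a negative log2 ratio at the regions called without them.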

How the results depend on the processing

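Blocks P and Q kept their direction and passed under every setting tried for embryos, blastomeres, prefix and depth, while the number of single regions called did not hold. Pairs below are percentages of tested regions more and less often open in SCNT, 0.336 and 0.367 as reported. They were 2.53 and 2.27 by the score test alone, 1.53 and 1.04 by limma on log2 ratios, 1.95 and 2.68 for regions open in at least 25% of embryos, and 0.113 and 0.106 with no filter. Depth from regions common before 8 cells gave 0.107 and 1.89, so that 5.37% of the called regions were more often open, against 47.8%, and the median log2 ratio was -0.49, against 0.08. Embryos thinned to 20561 calls gave 0.0494 and 0 (median log2 ratio -0.17). Embryos with all 8 blastomeres gave 0.0143 and 0.0258, prefix 15243 alone 0.115 and 0.0617, prefix 15244 alone 0.0695 and 0, and embryos of similar depth 0.00728 and 0. The named regions kept their direction in each of these refits in which they were tested, but of the 20 with the smallest adjusted p 0 of 19 tested passed when thinned, 1 at similar depth, 6 with all 8 blastomeres, 15 with prefix 15243 and 7 with prefix 15244. Without blastomeres that lack a block 0.626% were less often open. Leaving out each embryo gave 0.153 to 0.546 and 0.135 to 0.710, with 0.190 and 0.184 without IVF-611, 0.203 and 0.20 without IVF-612, 0.223 and 0.211 without IVF-614, 0.216 and 0.253 without IVF-616 and 0.220 and 0.202 without SCNT-62. Regions less often open were 0.235% without SCNT-16, 0.247% without SCNT-20, 0.220% without SCNT-24 and 0.211% without SCNT-54.

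Stretches higher were 5.68% with prefix 15243 alone, stretches higher and lower 4.36% and 2.38% with prefix 15244 alone, and 0.198% and 0.0991% at similar depth; leaving out each embryo gave 8.36 to 11.4% and 6.41 to 9.81%. The percent with the same direction at 2 and 4 cells was 56.8 with depth from common regions, 87 thinned, 88.4 with prefix 15244 alone and 100 at similar depth. Blocks that differed numbered 2 at similar depth, against 5.

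With all 8 blastomeres, differences were -0.220 in log10 calls (exact permutation p = 0.0829), -0.0476 in their spread, -19.8 points in absent blocks, -0.224 in H, -0.00137 in similarity among SCNT against IVF embryos and -0.842 points in common regions. Log10 calls and absent blocks no longer passed, and the others turned in sign. At similar depth they were -0.0879, -32.3, -0.175 in H, -4.82e-04 in similarity and -0.360 in common regions. The absent-block difference was -24.4 with either prefix alone (permutation p = 0.0987 and exact permutation p = 0.127) and -10.5 with a limit of 0.05, and did not pass. The excess within types was 7.00e-04 with prefix 15243, 5.99e-04 with 15244 and 0.00123 without blastomeres that lack a block, and did not pass. Coverage of H differed by -0.202 with prefix 15244 and by -0.0125 without those blastomeres. Common regions passed at 8.61 points with prefix 15243 and 6.84 at 3000 calls, and so did similarity among embryos at 0.0139 with 3000 calls. The causes were not tested. No paired analysis was possible because embryo numbers are not shared between the types.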

Other observations

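The dense stretch H took a larger share of the calls in shallow blastomeres of both types. It held a median of 19.8% of the calls of SCNT blastomeres under 3000 calls, 12.4% between 3000 and 10000 and 6.82% from 10000 upward. In IVF blastomeres the medians were 39.9, 15.2 and 6.37%. Over all blastomeres the medians were 11.1% in SCNT and 8.34% in IVF.

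At the regions of P and Q called without it, the IVF embryo without a number had 0.847 of the expected calls at those more often open in SCNT, where SCNT embryos had 0.442 to 4.73 and the other IVF embryos 0.0359 to 0.975. At those less often open it had 0.739, where SCNT embryos had 0.174 to 1.13 and the other IVF embryos 0.178 to 2.19. It lay inside the ranges of both types.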
